A study of Rattus norvegicus with 21 samples.

Results

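The acute phase genes described here are 9 of the 14218 rat genes that had an array probe set of their own, namely Cxcl1, Stat3, Socs3, A2m, Orm1, Lcn2, Hp, Fgb and Crp. They were chosen by name: a gene counted when a probe set was annotated with exactly 1 gene symbol and that symbol was on the list, and all 9 of 9 were found, with 12 probe sets between them. The RNA came from the liver of male Harlan Sprague Dawley rats given 2-ethylhexyl diphenyl phosphate (EHDP, spelled EDHP in the sample titles), a plasticiser and flame retardant of the organophosphate class, by gavage in corn oil on 4 days, with the left liver lobe taken on day 5. Corn oil was common to all groups. Groups of 3 arrays each received 61.2, 122.5, 244.6, 489.2 or 978.5 mg/kg, and 6 arrays carry the dose 0 and served as vehicle, although the protocol text speaks of 5 vehicle rats. No age is stated in the labels used here. Values are log2 signals, in which a difference of 1 is a doubling. Each array is labelled as a separate sample of its group, so p-values measure the spread between these samples.

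The acute phase response is the liver's change in secreted proteins during inflammation or tissue injury. Interleukin-6 acts through its receptor and the transcription factor STAT3, and interleukin-1 and tumour necrosis factor act through NF-kB and C/EBP factors. Hepatocytes then make more of some plasma proteins, the positive acute phase proteins, and less of others, such as albumin and transthyretin. In the rat, alpha-2-macroglobulin (A2m) and alpha-1-acid glycoprotein (Orm1) are strong responders, whereas C-reactive protein (Crp) circulates at a high level without inflammation.

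The binding letters of these factors were looked for in the promoters, because these are the pathways the members are known for. RefSeq promoter windows of the rat build GRCr8 were available for 7 of the 9 members, and none was read for A2m or Hp. Each ran from 250 bases before to 50 bases after an annotated start, which need not be the gene's outer end. The motifs searched on both strands were TTCNNNGAA (STAT), CTGGGAA (type 2 acute phase element), TTGCNNAA (C/EBP) and, for NF-kB, GGGA and CC with any 4 bases between them. The 4 windows with any match are printed 5′ to 3′ on the gene's own strand, with matches on either strand in capitals. They lie at chr5:81788259-81788558 (Orm1, plus strand), chr3:36081731-36082030 (Lcn2, minus strand), chr2:170700826-170701125 (Fgb, minus strand) and chr14:17479272-17479571 (Cxcl1, minus strand).
Orm1: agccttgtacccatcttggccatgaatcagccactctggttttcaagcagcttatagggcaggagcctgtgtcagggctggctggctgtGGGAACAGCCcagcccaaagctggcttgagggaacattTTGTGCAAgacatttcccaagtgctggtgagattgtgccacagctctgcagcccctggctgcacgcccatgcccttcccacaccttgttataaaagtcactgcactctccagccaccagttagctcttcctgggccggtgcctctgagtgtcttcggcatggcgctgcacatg
Lcn2: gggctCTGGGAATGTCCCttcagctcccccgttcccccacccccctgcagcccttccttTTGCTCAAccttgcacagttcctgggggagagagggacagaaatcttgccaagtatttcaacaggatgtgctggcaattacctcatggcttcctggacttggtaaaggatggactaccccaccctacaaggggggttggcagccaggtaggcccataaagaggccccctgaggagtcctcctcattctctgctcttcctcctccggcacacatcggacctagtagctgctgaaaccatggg
Fgb: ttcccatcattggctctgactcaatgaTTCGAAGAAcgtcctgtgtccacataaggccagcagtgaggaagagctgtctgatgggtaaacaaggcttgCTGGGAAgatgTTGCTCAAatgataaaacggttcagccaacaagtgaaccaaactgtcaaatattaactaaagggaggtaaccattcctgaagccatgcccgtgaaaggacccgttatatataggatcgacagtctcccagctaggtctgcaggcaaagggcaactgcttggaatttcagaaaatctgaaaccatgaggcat
Cxcl1: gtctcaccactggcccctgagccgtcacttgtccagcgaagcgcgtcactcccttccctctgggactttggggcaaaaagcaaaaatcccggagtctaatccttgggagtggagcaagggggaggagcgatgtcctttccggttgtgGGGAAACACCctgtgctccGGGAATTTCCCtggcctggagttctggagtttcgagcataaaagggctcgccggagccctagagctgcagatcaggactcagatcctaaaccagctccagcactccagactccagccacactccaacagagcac

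Fgb held the STAT motif from position -223 to -215, counted back from the start, with the type 2 element at -152 to -146 and a C/EBP motif at -141 to -134. Lcn2 held the type 2 element ending at -239, which overlapped an NF-kB match at -243 to -234 and its shifted match on the other strand, and a C/EBP motif at -191 to -184. Orm1 held an NF-kB motif at -161 to -152 and a C/EBP motif on the other strand that ended at -116. Cxcl1 held NF-kB matches at -103 to -94 and at -84 to -75, the second of them also read from the other strand 1 base further on, and none of the other motifs. The windows of Crp, Stat3 and Socs3 held none of the 4 motifs, which says only that these letters are not in those windows. The Socs3 window, chr10:103694719-103695018, lay wholly inside the annotated gene, which spans 103692579 to 103695975. The stretch before that gene's outer end was therefore not searched. For Lcn2 and Stat3 the gene's outer end, at 36081851 and 86363513, lay inside the window, before the start used. The Lcn2 positions thus count from a start within the annotated gene. Of all 33469 rat promoters of the same length, 8.87% held the STAT motif, 11.3% the type 2 element, 10.6% the C/EBP motif and 19.3% the NF-kB motif, against 1, 2, 3 and 3 of the 7 members.

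**Figure D1:**
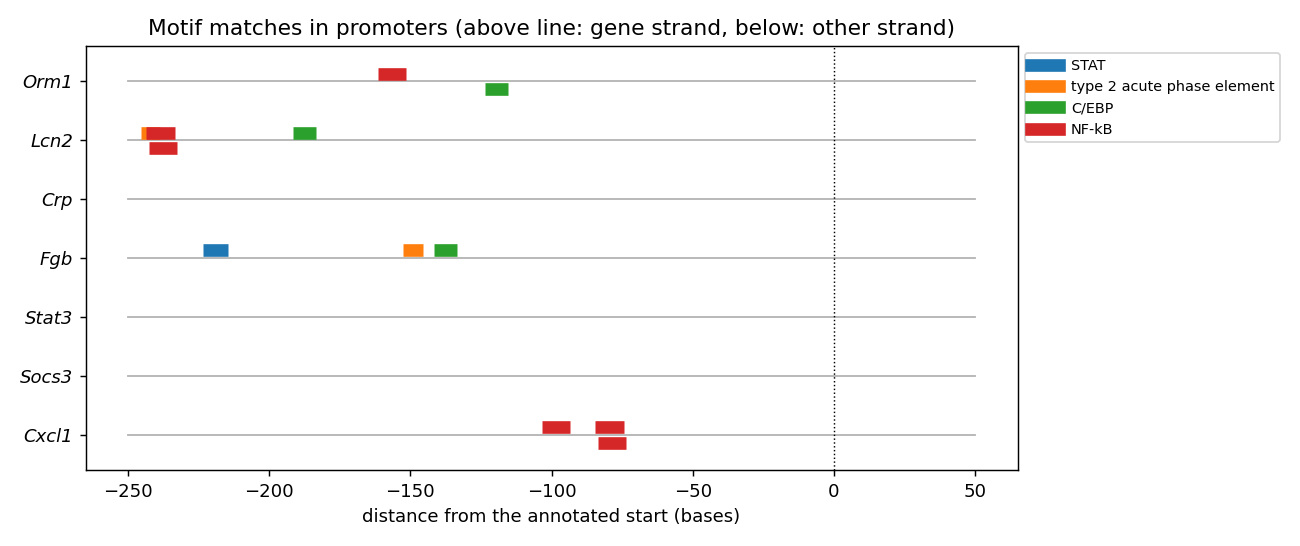
Matches to the 4 motifs in the promoters of 7 acute phase genes, by distance in bases from the annotated start (matches on the gene's strand above each line, on the other strand below it). Matches are seen in Orm1, Lcn2, Fgb and Cxcl1, all of them before the start, and none in Crp, Stat3 or Socs3. The Socs3 window lies inside the annotated gene.

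Over all 31099 probe sets the median log2 signal of an array was 6.33 to 6.41. Over the 14218 genes, vehicle replicate 6 had the lowest mean correlation with the other arrays (0.987). Replicates 1 and 3 at 489.2 mg/kg had 0.988 and 0.989, replicate 3 at 978.5 mg/kg had 0.989, and the highest was 0.994. Hepatocyte markers were high in keeping with the tissue label: the mean log2 signal of 13 of 15 listed markers, such as albumin, lay between 13.4 and 13.59 on all arrays. The arrays read whole pieces of liver, so fewer cells of a type and less RNA per cell cannot be told apart. Some arrays were high in several of the acute phase genes. Replicate 3 at 489.2 mg/kg was among the 3 highest arrays for 8 of the 9 members and the highest for 4 of them. Vehicle replicate 5 was among the 3 highest for 4 members, and vehicle replicate 6, replicate 1 at 489.2 mg/kg and replicate 2 at 978.5 mg/kg for 3 members each. For how many of all genes each array was among the 3 highest was not counted, so these counts only describe the members.

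Few of the acute phase genes passed the test at any dose (limma, Benjamini-Hochberg adjusted p under 0.05 over all genes): Orm1 was higher at 489.2 mg/kg, and Orm1 and Crp rose with dose. At 61.2 mg/kg 0 of 9 members passed, where 0.0141% of all genes did, and at 122.5 mg/kg 0 of 9, where 0.113% did. At 244.6 mg/kg it was 0 of 9 against 2.95% of all genes. The single member called at 489.2 mg/kg was Orm1, 1 of 9 against 2.9% of all genes, and at 978.5 mg/kg 0 of 9 passed, against 10.2%. In a trend over dose rank Orm1 and Crp passed, 2 of 9, against 11.2% of all genes. At an unadjusted p under 0.05, limma gave 0, 2, 1, 2 and 2 members from the lowest dose to the highest, and 2 in the trend. Of all genes, 5.48, 6.06, 14, 14.5 and 24.7% had such a p at these doses, and 24.5% in the trend. The median log2 difference from vehicle over the 9 members was -0.09, -0.03, -0.10, 0.12 and -0.18 from the lowest dose to the highest, beside 0, 0, -0.01, 0.01 and -0.02 over all genes. Between 978.5 and 61.2 mg/kg directly, 0 of 9 members passed against 2.26% of all genes. At an unadjusted p under 0.05 it was 1 member, against 14.9% of all genes. The doses share their vehicle arrays, so their values are given side by side and not as independent results.

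**Figure D2:**
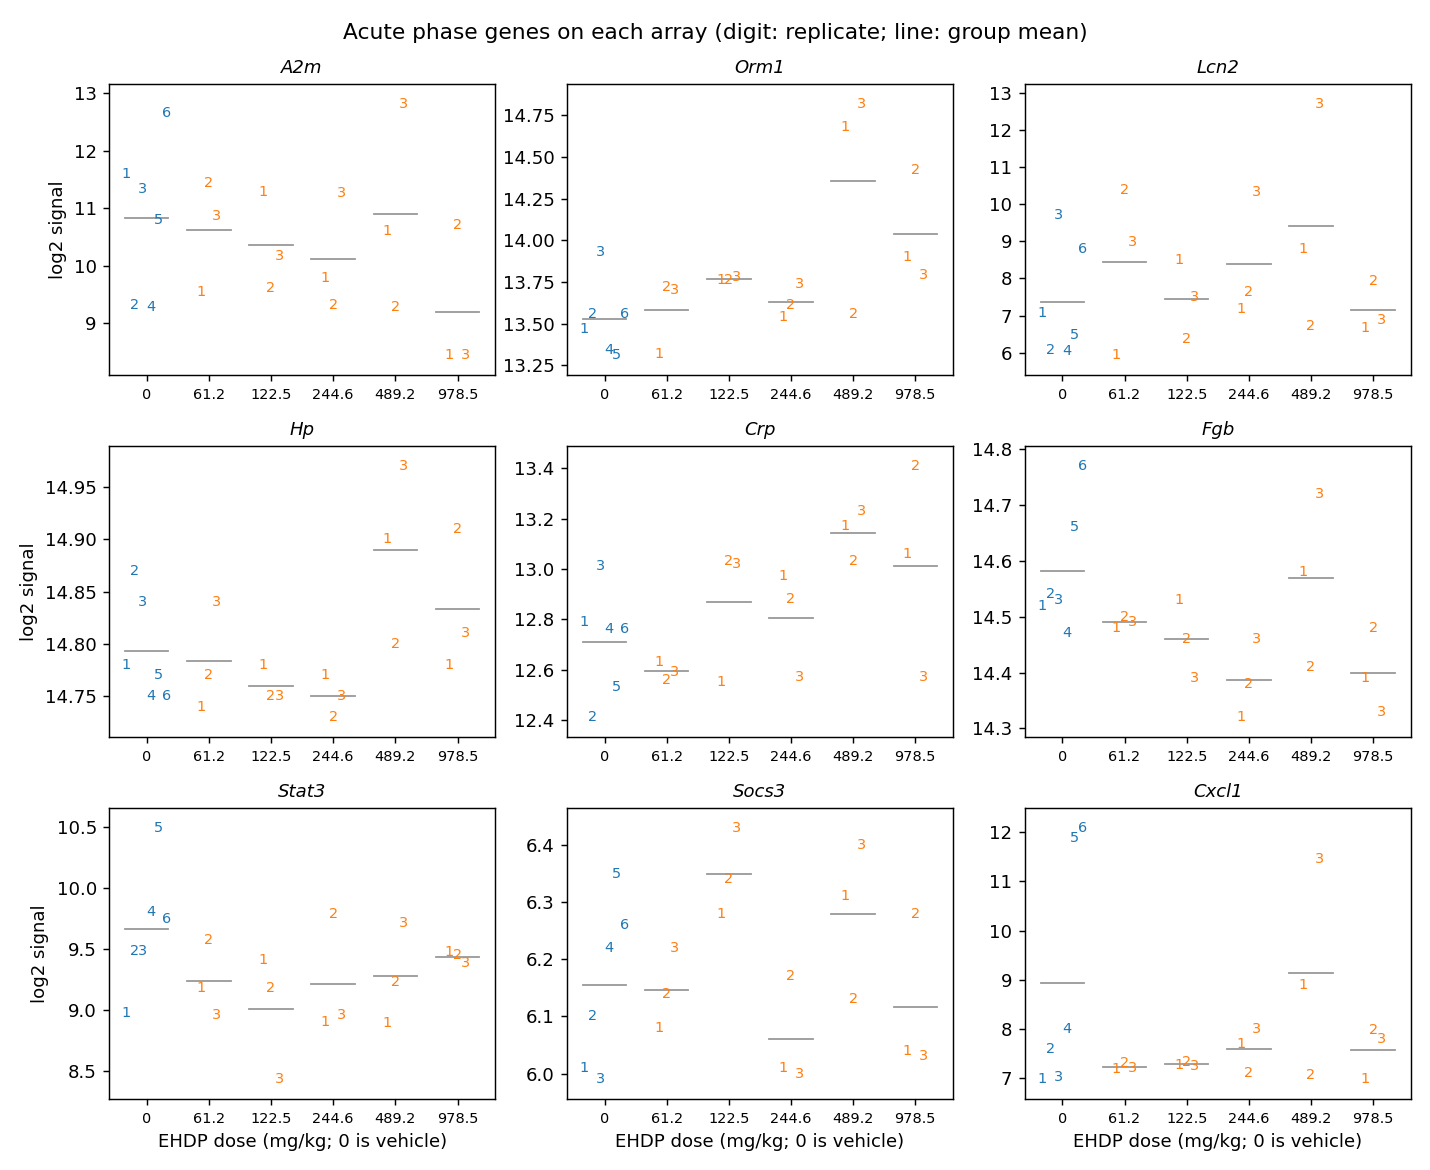
Log2 signal of the 9 acute phase genes on each of the 21 arrays against EHDP dose in mg/kg, with 0 for vehicle; digits are replicate numbers and grey lines group means. Lcn2, Cxcl1 and A2m spread over several log2 units within a dose, while Hp and Fgb stay within a narrow band.

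Cxcl1 encodes a chemokine that draws neutrophils. Its log2 signal had a lowest, median and highest value of 6.98, 7.80 and 12.09 over the 6 vehicle arrays. It was 7.19, 7.32 and 7.20 at 61.2 mg/kg, 7.27, 7.33 and 7.25 at 122.5 mg/kg and 7.69, 7.11 and 8.01 at 244.6 mg/kg. It was 8.89, 7.06 and 11.46 at 489.2 mg/kg and 6.98, 7.98 and 7.79 at 978.5 mg/kg. Thus 3 of the 21 arrays were above 11, namely replicate 3 at 489.2 mg/kg and vehicle replicates 5 (11.89) and 6 (12.09), and no other array reached 9. The groups overlapped at every dose. The log2 difference from vehicle was -1.69 ± 1.01 at 61.2 mg/kg (SE, limma adjusted p = 0.93) and -1.35 ± 1.01 at 978.5 mg/kg (limma adjusted p = 0.438). Without vehicle replicate 5 these were -1.10 ± 0.92 and -0.76 ± 0.92, and without vehicle replicate 6 -1.06 ± 0.89 and -0.72 ± 0.89, so they were smaller by more than 1.5 times at both doses without either array. For 489.2 mg/kg it was 0.20 ± 1.01 with all arrays, -0.96 ± 1.06 without replicate 3 of that dose and 0.83 ± 0.89 without vehicle replicate 6, with limma adjusted p of 0.96, 0.769 and 0.733 in that order.

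Other genes of the chemokine and interleukin-1 pathways were high on some of these arrays. The log2 signal of S100a8, 1 of a calcium-binding pair abundant in neutrophils, was 8.02 on replicate 3 at 489.2 mg/kg and 7.39 on vehicle replicate 6, and no more than 5.25 on any other array. Its partner S100a9 was 9.12 and 9.29 on the same arrays, and no more than 7.02 elsewhere. Il1r1, the interleukin-1 receptor, was 10.84 on replicate 3 at 489.2 mg/kg and 11.50 on vehicle replicate 6. Ccl2, a chemokine for monocytes, was high on only 1 of them, at 5.09 on replicate 3 at 489.2 mg/kg against 7.86 on vehicle replicate 6. Junb, a subunit of the AP-1 transcription factor listed with the interleukin-6 pathway, was picked for its likeness to Cxcl1. It was 7.78 on replicate 3 at 489.2 mg/kg, and 8.47 and 9.0 on vehicle replicates 5 and 6. S100a8, S100a9 and Ccl2 on vehicle replicate 5 were 5.25, 7.02 and 4.75. So S100a8, S100a9 and Ccl2 were not high on all 3 arrays with high Cxcl1. The correlation of Junb with Cxcl1 over the 21 arrays (r = 0.85) was the reason Junb was picked among all genes. It is therefore no separate result, and the 3 arrays with high Cxcl1 weigh heavily in it.

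The neutrophil marker list, with 12 of its 17 genes measured, had a mean log2 signal of 5.03 to 5.12 at 61.2 mg/kg, 5.04 to 5.15 at 122.5 mg/kg, 5.03 to 5.11 at 244.6 mg/kg, 5.11 to 5.63 at 489.2 mg/kg, 5.03 to 5.09 at 978.5 mg/kg and 5.12 to 5.63 in vehicle. The value of 5.63 belonged to replicate 3 at 489.2 mg/kg and to vehicle replicate 6. Of the 12 markers, 7 were under the 20th percentile of all values (5.56) on all arrays, among them Csf3r, Cxcr1 and Cxcr2, receptors that neutrophils carry, and Mmp8. The part of neutrophils in the high Lcn2, A2m and Cxcl1 signals of these arrays was not tested.

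**Figure D3:**
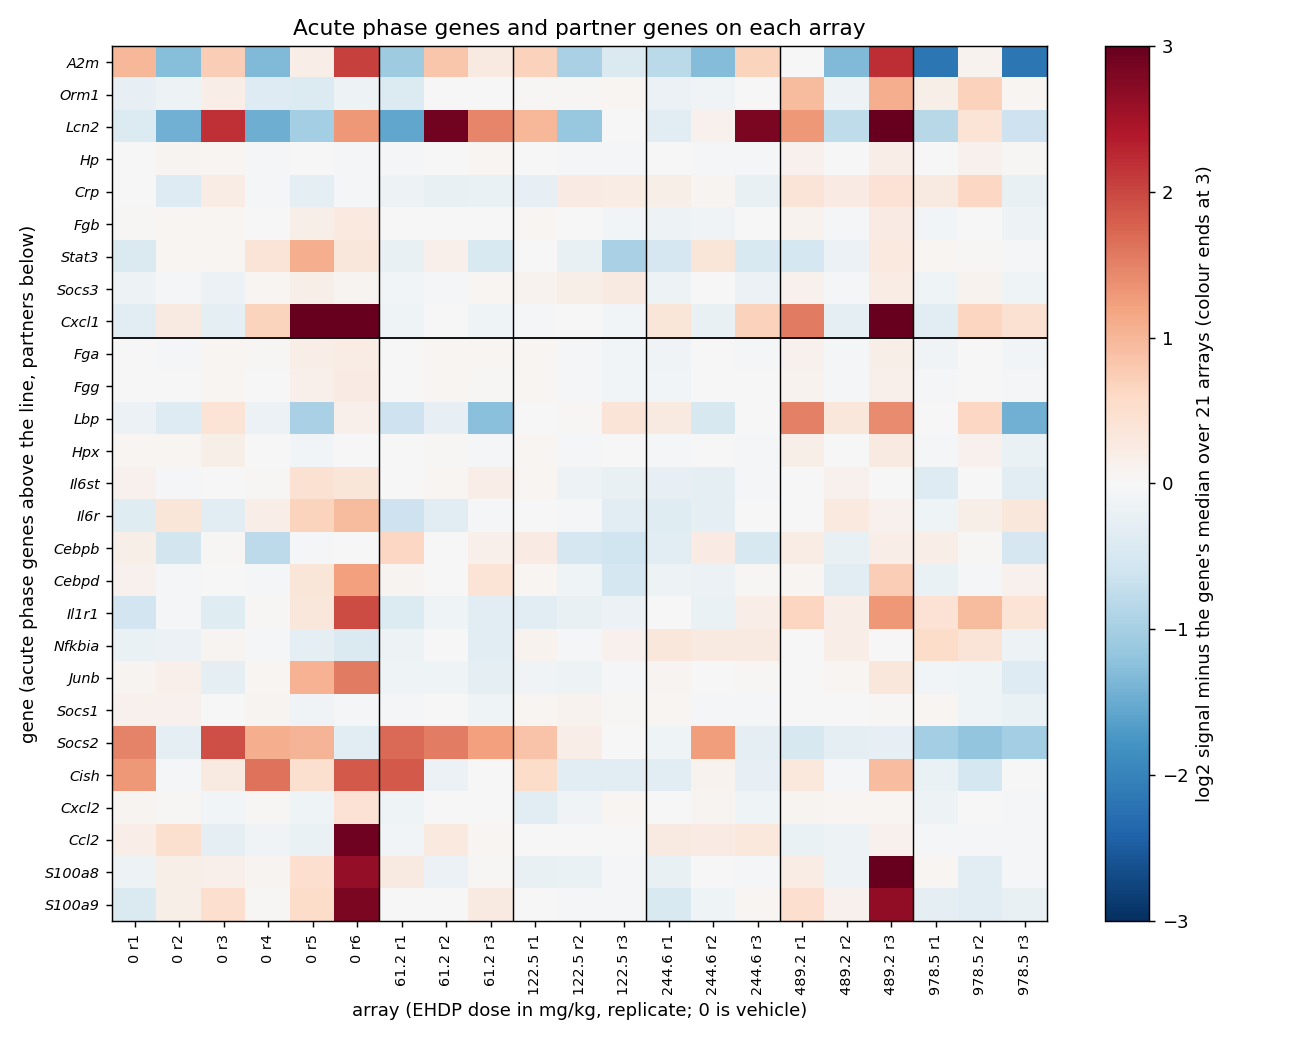
Log2 signal minus the gene's median over the 21 arrays, for the 9 acute phase genes (above the line) and partner genes of their pathways (below it), with arrays in order of EHDP dose in mg/kg and replicate number (r). Cxcl1 is deep red on vehicle replicates 5 and 6 and on replicate 3 at 489.2 mg/kg, and S100a8 and S100a9 only on vehicle replicate 6 and on replicate 3 at 489.2 mg/kg.

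Stat3 encodes the transcription factor that carries the interleukin-6 signal into the nucleus. Over the vehicle arrays its lowest, median and highest log2 signals were 8.97, 9.61 and 10.49. It was 9.18, 9.57 and 8.96 at 61.2 mg/kg, 9.41, 9.18 and 8.43 at 122.5 mg/kg and 8.90, 9.78 and 8.96 at 244.6 mg/kg. It was 8.89, 9.23 and 9.71 at 489.2 mg/kg and 9.47, 9.45 and 9.38 at 978.5 mg/kg. Its group means were lower than in vehicle at all 5 doses, most at 122.5 mg/kg with a log2 difference of -0.65 ± 0.27 (SE, limma adjusted p = 0.738), and none passed. A further probe set for Stat3 correlated with the main one at only r = 0.35 across the 21 arrays. That probe set gave a log2 difference at 489.2 mg/kg of 0.31 ± 0.32, in the opposite direction to the -0.38 ± 0.27 of the main probe set.

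Socs3 encodes a feedback inhibitor of the interleukin-6 receptor that STAT3 induces. The lowest, median and highest log2 signals in vehicle were 5.99, 6.16 and 6.35, and the treated arrays ran from 6.0 to 6.43. At 122.5 mg/kg it was 6.28, 6.34 and 6.43, a log2 difference of 0.19 ± 0.09 (SE, limma adjusted p = 0.807), and 1 of these 3 arrays lay above all vehicle arrays. Group means at the other doses were 6.15, 6.06, 6.28 and 6.12 from 61.2 to 978.5 mg/kg, against 6.16 in vehicle, and these groups overlapped the vehicle arrays.

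A2m encodes alpha-2-macroglobulin, an inhibitor of proteases. In vehicle its log2 signal had a lowest, median and highest value of 9.28, 11.07 and 12.66. It was 9.54, 11.44 and 10.87 at 61.2 mg/kg, 11.29, 9.62 and 10.17 at 122.5 mg/kg and 9.79, 9.31 and 11.26 at 244.6 mg/kg. It was 10.60, 9.28 and 12.82 at 489.2 mg/kg and 8.44, 10.70 and 8.44 at 978.5 mg/kg. At the highest dose 2 of 3 arrays lay below all vehicle arrays and the remaining one did not. The log2 difference there was -1.64 ± 0.79 (SE), with a 95% interval of -3.29 to 0.01 (limma adjusted p = 0.206), and it was -1.27 ± 0.76 without vehicle replicate 6, the highest of the vehicle arrays (limma adjusted p = 0.306). The mean at 489.2 mg/kg exceeded that of vehicle by 0.07 ± 0.79 with all arrays and was -0.89 ± 0.82 from it without replicate 3 (limma adjusted p = 0.984 and 0.701).

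Lcn2 encodes lipocalin-2, which binds bacterial iron carriers and is made by both neutrophils and inflamed hepatocytes. The vehicle arrays had a lowest, median and highest log2 signal of 6.04, 6.77 and 9.70. It was 5.93, 10.39 and 8.97 at 61.2 mg/kg, 8.49, 6.37 and 7.50 at 122.5 mg/kg and 7.17, 7.63 and 10.33 at 244.6 mg/kg. It was 8.79, 6.73 and 12.70 at 489.2 mg/kg and 6.66, 7.92 and 6.87 at 978.5 mg/kg. Arrays with a signal above 10 occurred at 3 doses, once in each, and none in vehicle or at the highest dose. The highest vehicle array, at 9.70, lay close under that level. The difference at 489.2 mg/kg was 4.13-fold with a 95% interval of 0.806 to 21.2 (limma adjusted p = 0.435). Without replicate 3 its log2 difference was 0.40 ± 1.09 instead of 2.05 ± 1.13 (limma adjusted p = 0.925).

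Orm1 encodes alpha-1-acid glycoprotein, a carrier of drugs and a modulator of inflammation. Its log2 signal had a lowest, median and highest value of 13.31, 13.51 and 13.93 in vehicle. It was 13.32, 13.72 and 13.70 at 61.2 mg/kg, 13.76, 13.76 and 13.78 at 122.5 mg/kg and 13.54, 13.61 and 13.74 at 244.6 mg/kg. It was 14.68, 13.56 and 14.82 at 489.2 mg/kg and 13.90, 14.42 and 13.79 at 978.5 mg/kg. The arrays above all vehicle arrays were 2 of 3 at 489.2 mg/kg, 1 of 3 at 978.5 mg/kg and 0 at the lower doses.

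Orm1 rose 1.77-fold at 489.2 mg/kg (95% interval 1.32 to 2.38), a log2 difference of 0.82 ± 0.20 (SE, limma adjusted p = 0.0313). At 978.5 mg/kg the log2 difference was 0.51 ± 0.20 and did not pass (limma adjusted p = 0.124). The trend was 0.13 ± 0.04 log2 units per dose step (limma adjusted p = 0.0242). The call at 489.2 mg/kg was lost in 5 of the 21 fits that left out 1 array: without replicate 1 (0.66, limma adjusted p = 0.271) or replicate 3 (0.59, limma adjusted p = 0.196) of that dose, and without vehicle replicate 1, 4 or 5 (limma adjusted p = 0.0553, 0.0595 and 0.0617). Leaving out replicate 2 of that dose gave 1.22, with limma adjusted p = 0.000232. The trend was lost in 1 of the 21 such fits, without replicate 2 at 978.5 mg/kg (limma adjusted p = 0.0713). The call at 489.2 mg/kg did not pass with array weights (limma adjusted p = 0.0996) or with only the arrays compared (0.16), among other settings. The trend did not pass over dose in mg/kg, over treated arrays alone (limma adjusted p = 0.215) or in an F test over the groups (0.1), among other settings.

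Crp encodes C-reactive protein, which binds damaged membranes and bacterial surfaces. Vehicle arrays had a lowest, median and highest log2 signal of 12.41, 12.76 and 13.01. It was 12.63, 12.56 and 12.59 at 61.2 mg/kg, 12.55, 13.03 and 13.02 at 122.5 mg/kg and 12.97, 12.88 and 12.57 at 244.6 mg/kg. It was 13.17, 13.03 and 13.23 at 489.2 mg/kg and 13.06, 13.41 and 12.57 at 978.5 mg/kg. All 3 arrays at 489.2 mg/kg lay above all vehicle arrays, but only just (13.03 against 13.01). The share of all genes set apart in this way was not counted. The log2 difference there was 0.43 ± 0.15 (SE, limma adjusted p = 0.158) and at 978.5 mg/kg 0.30 ± 0.15 (limma adjusted p = 0.231), so neither passed. The trend was 0.08 ± 0.03 log2 units per dose step (limma adjusted p = 0.0487), and it was lost in 15 of the 21 fits that left out 1 array, with limma adjusted p between 0.00802 and 0.153 over all of them. The fits in which it passed were those without vehicle replicate 3 or 6, replicate 1 or 3 at 122.5 mg/kg, replicate 3 at 244.6 mg/kg or replicate 3 at 978.5 mg/kg. Among other settings it did not pass over dose in mg/kg, over treated arrays alone (limma adjusted p = 0.157), in an F test (0.26), after a second quantile normalisation (0.0672) or in a fit with each gene's most variable probe set (0.0528). Crp and Orm1 were the members whose trend passed, and some cell type markers were lower at the highest dose. The mean log2 signal of 11 macrophage and Kupffer cell markers was 9.28 to 9.65 at 978.5 mg/kg against 9.77 to 10.24 in vehicle. That of red blood cell markers, with 4 of 8 measured, was 8.42 to 9.19 at 978.5 mg/kg against 9.23 to 10.29 in vehicle. Limma called 3 of these 4 lower, both at 978.5 mg/kg and in the trend. Of the 11 macrophage and Kupffer cell markers it called 1 lower at 978.5 mg/kg and 4 lower in the trend. Of all genes, 10.2% and 11.2% passed in these comparisons. At 489.2 mg/kg the macrophage and Kupffer cell markers had means of 8.81, 10.10 and 10.14, and the red blood cell markers 8.7 to 9.44. Limma called 0 markers of either list there, where 2.9% of all genes passed. The part of cell composition in either trend was not tested.

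Hp encodes haptoglobin, which binds free haemoglobin. Its log2 signal had a lowest, median and highest value of 14.75, 14.78 and 14.87 in vehicle and ran from 14.73 to 14.97 over all 21 arrays, a 1.18-fold range. The signal at 489.2 mg/kg was 14.90, 14.80 and 14.97, with 2 of 3 arrays above all vehicle arrays and a log2 difference of 0.10 ± 0.06 (SE, limma adjusted p = 0.468). At 978.5 mg/kg it was 14.78, 14.91 and 14.81, a log2 difference of 0.04 ± 0.06 (limma adjusted p = 0.721). The highest value of any probe set in the series was 15.36, and Hp ranked 8 of 14218 genes by mean signal. Whether a signal this near the top of the scale could still rise with more RNA was not tested.

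Fgb encodes the beta chain of fibrinogen, the precursor of the clot. Its log2 signal had a lowest, median and highest value of 14.47, 14.53 and 14.77 in vehicle. It was 14.32, 14.38 and 14.46 at 244.6 mg/kg, with a log2 difference of -0.19 ± 0.08 (SE, limma adjusted p = 0.223). All 3 arrays lay below all vehicle arrays, but only just (14.46 against 14.47). The share of all genes set apart in this way was not counted. At 978.5 mg/kg it was 14.39, 14.48 and 14.33, a log2 difference of -0.18 ± 0.08 (limma adjusted p = 0.142). The signals of 14.58, 14.41 and 14.72 at 489.2 mg/kg overlapped the vehicle arrays. The alpha and gamma chains, Fga and Fgg, gave log2 differences of -0.15 ± 0.07 and -0.12 ± 0.06 at 978.5 mg/kg (limma adjusted p = 0.177 and 0.278). Fgb had 2 further probe sets with mean log2 signals of 5.58 and 4.34, close to or under the 20th percentile of all values, and one of them had a log2 difference of 0.26 ± 0.11 at 978.5 mg/kg.

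**Figure D4:**
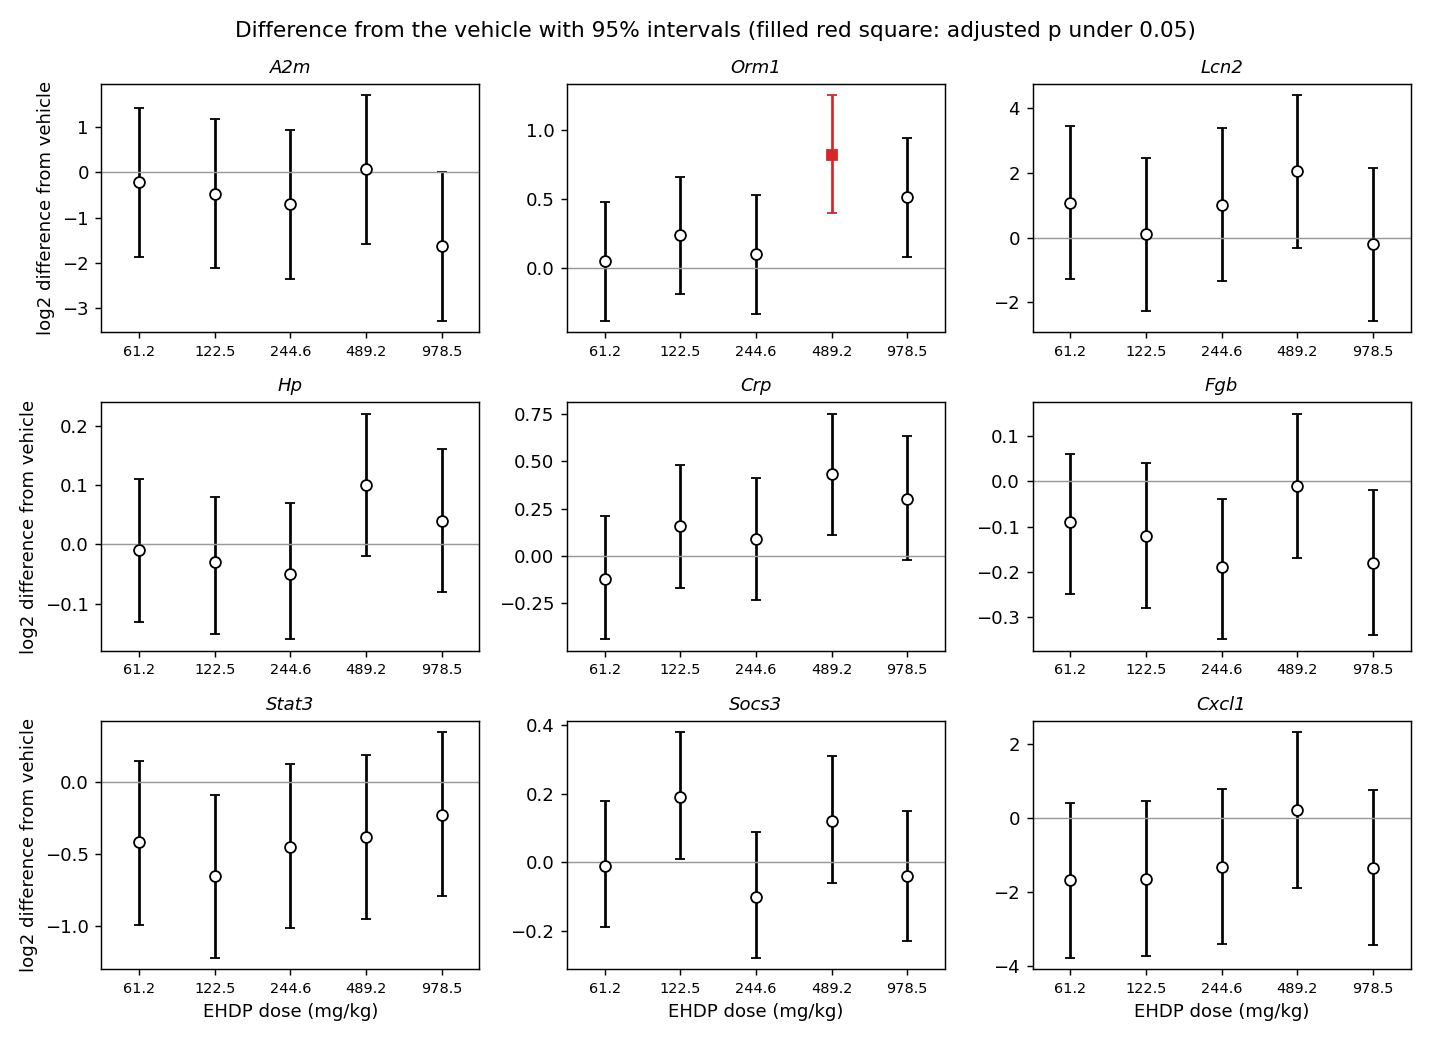
Log2 difference from vehicle at each EHDP dose in mg/kg for the 9 acute phase genes, with bars for 95% intervals from limma and a red square where the adjusted p was under 0.05. Orm1 at 489.2 mg/kg (0.82) is the single red square, and the intervals of Lcn2, Cxcl1 and A2m span several log2 units.

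Several members, above all Lcn2, Cxcl1 and A2m, spread widely between arrays of the same dose. Over 14218 genes the residual SD, which is the spread between arrays of a group, had a median of 0.14 log2 units. Lcn2 had the largest of all (1.82, rank 1), Cxcl1 the second (1.62, rank 2) and A2m the tenth (1.27, rank 10). Stat3 ranked 302 (0.43), Orm1 720 (0.32) and Crp 1655 (0.24). Socs3 (rank 9252), Fgb (12475) and Hp (14181) had an SD of 0.12, 0.10 and 0.05. Between the lowest and the highest array the signal differed 109-fold for Lcn2, 34.4-fold for Cxcl1 and 20.9-fold for A2m. The dose groups accounted for 20% of the variance of Lcn2, 25% of that of Cxcl1 and 21.5% of that of A2m. For Stat3 it was 27.6%, and all of these were below the median of 30.6% over all genes. Above that median lay Orm1 (53.3%), Hp (49.5%), Fgb (47.4%), Socs3 (44.2%) and Crp (43.7%). With few arrays per group, some share arises without any effect of dose. These ranks describe the series and were not tested.

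**Figure D5:**
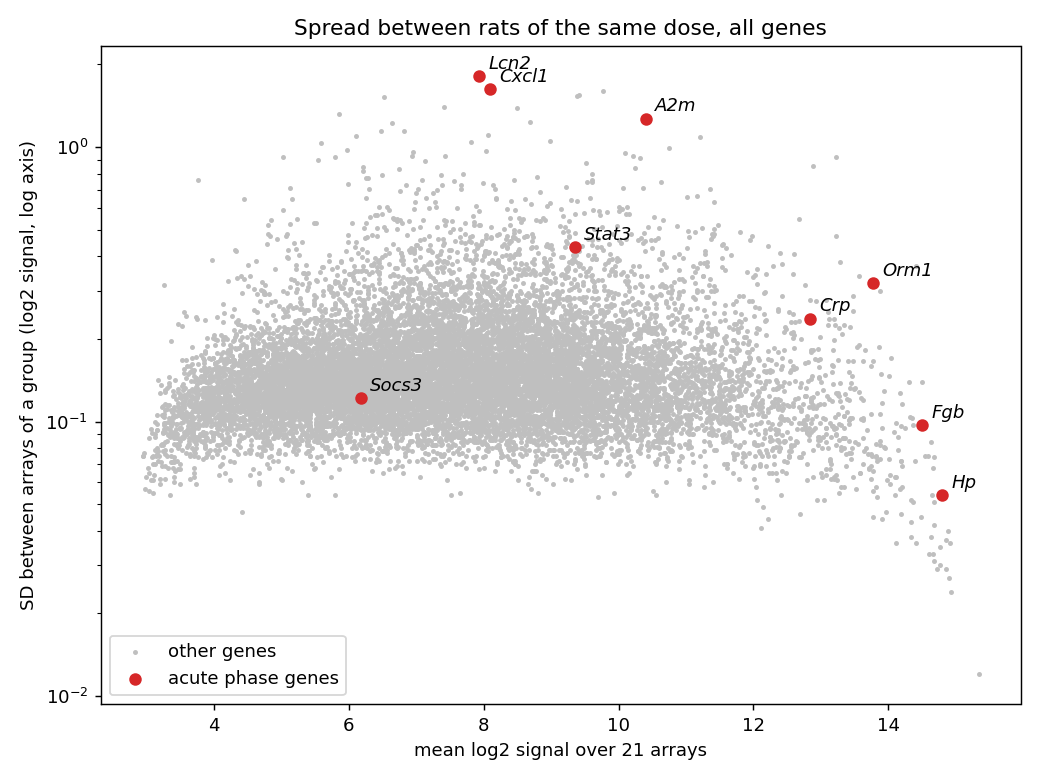
SD between arrays of the same dose (log2 signal, log axis) against the mean log2 signal over 21 arrays for all 14218 genes, with the 9 acute phase genes in red. Lcn2 (1.82) and Cxcl1 (1.62) lie at the top and Hp (0.05) near the bottom.

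Some members varied together from array to array. The p-values below come from permuting all 21 arrays without regard to dose, so they do not test covariation within a dose. Among the 28 pairs of 8 members, 3 had both a Pearson and a Spearman correlation that passed after adjustment over the pairs; Cxcl1 was left out because its arrays fall into separate clusters. A2m and Fgb correlated at r = 0.77 over 21 arrays (permutation p = 5e-05, adjusted 0.00056) and rho = 0.70 (permutation p = 0.00055, adjusted 0.0077), at r = 0.70 without the 2 arrays farthest from the median of A2m, and at r = 0.78 within groups. A2m and Lcn2 correlated at r = 0.76 (permutation p = 6e-05, adjusted 0.00056) and rho = 0.71 (permutation p = 0.00046, adjusted 0.0077), at r = 0.69 without those arrays and at r = 0.86 within groups. Orm1 and Hp correlated at r = 0.82 (permutation p = 4e-05, adjusted 0.00056) and rho = 0.60 (permutation p = 0.00472, adjusted 0.0441), at r = 0.60 without replicates 1 and 3 at 489.2 mg/kg and at r = 0.80 within groups. Orm1 and Crp, the members with a trend, had r = 0.67 (permutation p = 0.00042, adjusted 0.00294) and rho = 0.55 (permutation p = 0.011, adjusted 0.0618), r = 0.58 without the same 2 arrays and r = 0.41 within groups. Orm1 and A2m, both strong responders in rat inflammation, had r = 0.32 (permutation p = 0.154, adjusted 0.324) and rho = 0.12 (permutation p = 0.611, adjusted 0.815), r = 0.14 without the 2 arrays farthest in A2m and r = 0.65 within groups.

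The genes most like each member over the 21 arrays are given as a description, by Pearson r, chosen among all 14218 genes. Fgb was most like the other fibrinogen chains, Fgg (0.95) and Fga (0.92). Hp was most like Fgl1, a fibrinogen-like protein secreted by hepatocytes (0.93), and Orm1 like Tmem176b (0.89), Wfdc21 (0.89) and Clu, which encodes the chaperone clusterin (0.84). A2m was most like the phospholipase gene Pla1a (0.87) and the syndecan gene Sdc2 (0.82), and Lcn2 like Spink1, a secreted protease inhibitor (0.79). Crp was most like Adrm1, a subunit of the proteasome (0.81), Stat3 like the transcription factor gene Klf13 (0.78) and Socs3 like the potassium channel gene Kcnk15 (0.75). Cxcl1 was most like Cfap20 (0.88) and Junb (0.85), over arrays of which 3 stood far above the rest in Cxcl1.

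Among other positive acute phase proteins, Fn1 and Itih3 were lower at the highest dose. Of 32 measured on a list of 45, limma called 0 at 61.2, 122.5, 244.6 and 489.2 mg/kg. At an unadjusted p under 0.05 it was 0, 1, 3 and 7 there, beside 5.48, 6.06, 14 and 14.5% of all genes. Limma called 2 lower at 978.5 mg/kg, where 10.2% of all genes passed. The 2 were Fn1, the adhesion protein fibronectin, and Itih3, a carrier of hyaluronan. Fn1 fell to 13.21, 13.26 and 13.10 at 978.5 mg/kg, against 13.46 to 13.84 in vehicle, a log2 difference of -0.40 ± 0.09 (SE, limma adjusted p = 0.00553). The mean log2 signal of 15 stellate cell and fibroblast markers was 7 to 7.48 at 978.5 mg/kg, against 7.4 to 7.95 in vehicle, and the part of these cells in the Fn1 values was not tested. Itih3 differed by -0.17 ± 0.05 (limma adjusted p = 0.0417), a call lost in 12 of the 21 fits that left out 1 array. In the trend, where 11.2% of all genes passed, Fn1 fell by 0.06 log2 units per dose step (limma adjusted p = 0.0133), a call lost over treated arrays alone (0.44) and in the F test (0.0509). Mt2A, a metallothionein that binds zinc, rose by 0.31 ± 0.08 log2 units per dose step (limma adjusted p = 0.019), a call lost over treated arrays alone (0.0536) and in the F test (0.337). Lbp, the binding protein for bacterial lipopolysaccharide, had 11.54, 10.38 and 11.45 at 489.2 mg/kg, against 9.06 to 10.45 in vehicle, a log2 difference of 1.28 ± 0.37 that did not pass (limma adjusted p = 0.0659).

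Among negative acute phase proteins, 18 of 19 listed genes were measured, and the calls were all lower: 1 at 244.6, 2 at 489.2 and 5 at 978.5 mg/kg, with 4 in the trend. Of all genes, 2.95%, 2.9%, 10.2% and 11.2% passed in these comparisons. At 61.2 and 122.5 mg/kg limma called 0 (0 and 2 at an unadjusted p under 0.05, beside 5.48% and 6.06% of all genes). Albumin (Alb) and transthyretin (Ttr) were not called at any dose or in the trend, with lowest limma adjusted p of 0.909 and 0.619. Nor were Rbp4, Gc and Serpinc1 (0.92, 0.733 and 0.915). The median log2 difference over the list at 978.5 mg/kg was -0.10, beside -0.02 over all genes. Itih1, which carries hyaluronan, was lower by a log2 difference of -0.40 ± 0.06 at 978.5 mg/kg (limma adjusted p = 0.00059). Serpina7, thyroxine-binding globulin, had 8.29, 9.36 and 9.50 at 978.5 mg/kg, against 10.26 to 11.27 in vehicle, a log2 difference of -1.76 ± 0.38 (limma adjusted p = 0.0052, and 0.0533 without replicate 1 of that dose). Apoa4, an apolipoprotein, had 11.76, 12.50 and 11.05 at 978.5 mg/kg, against 12.58 to 12.85 in vehicle (limma adjusted p = 0.0194), and did not pass when replicate 1 or 3 of that dose was left out. Igf1, the liver's growth factor, differed by -0.33 ± 0.07 (limma adjusted p = 0.00371), and its most variable probe set gave -0.38 ± 0.25, which did not pass (0.38). F12, a clotting factor, differed by -0.25 ± 0.07 (limma adjusted p = 0.0324), a call lost in 5 of the 21 fits that left out 1 array and with only the arrays compared (0.0605). Serpina6, corticosteroid-binding globulin, had 11.27, 12.66 and 12.31 at 489.2 mg/kg, against 12.86 to 13.12 in vehicle, a log2 difference of -0.92 ± 0.18 (limma adjusted p = 0.00589) that was -0.52 without replicate 1 and did not pass with only the arrays compared (0.0994). The highest dose held 12.88, 12.74 and 12.87 for Serpina6.

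In the interleukin-6, STAT3 and C/EBP list, 42 of 47 genes were measured. Limma called 1 higher and 1 lower at 489.2 mg/kg, 2 higher and 4 lower at 978.5 mg/kg, and 2 higher and 6 lower in the trend, where 2.9%, 10.2% and 11.2% of all genes passed. At 61.2, 122.5 and 244.6 mg/kg it called 0. At an unadjusted p under 0.05 the counts there were 2, 4 and 5, beside 5.48, 6.06 and 14% of all genes. The cytokine Ctf1, of the interleukin-6 family, rose to 8.19, 7.83 and 7.52 at 978.5 mg/kg, against 6.93 to 7.29 in vehicle (log2 difference 0.70 ± 0.13, limma adjusted p = 0.00203). Clcf1, another cytokine of that family, had a log2 difference of 0.58 ± 0.10 (limma adjusted p = 0.00131), with signals of 3.13 to 4.12 on all arrays, under the 20th percentile of all values. Il6st, the shared receptor chain gp130, was lower by a log2 difference of -0.40 ± 0.11 (limma adjusted p = 0.0247), which did not pass when replicate 1 or 3 at 978.5 mg/kg was left out or with only the arrays compared (0.0878), and another of its probe sets gave 0.08. Socs2, a relative of Socs3 induced by growth hormone, had 5.80, 5.62 and 5.80 at 978.5 mg/kg, against 6.49 to 8.75 in vehicle (log2 difference -1.90 ± 0.41, limma adjusted p = 0.00513). Il11ra1, a receptor chain for interleukin-11, differed by -0.36 ± 0.08 at 489.2 mg/kg (limma adjusted p = 0.0136, and 0.0528 without replicate 3 of that dose), and Onecut1, a hepatocyte transcription factor, fell in the trend by 0.40 log2 units per dose step (limma adjusted p = 0.024), a call lost over treated arrays alone (0.202), in the F test (0.243), and without vehicle replicate 3 or replicate 1 or 3 at 978.5 mg/kg. Il6r, Cebpb, Cebpd, Socs1 and Cish did not pass at any dose.

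In the interleukin-1, tumour necrosis factor and NF-kB list, 35 of 38 genes were measured. Limma called 1 higher at 244.6 mg/kg, 4 higher and 1 lower at 978.5 mg/kg and 5 higher in the trend, where 2.95%, 10.2% and 11.2% of all genes passed. At 61.2, 122.5 and 489.2 mg/kg it called 0. At an unadjusted p under 0.05 the counts there were 3, 3 and 7, beside 5.48, 6.06 and 14.5% of all genes. Cd14, a receptor for lipopolysaccharide, had 10.91, 11.43 and 11.39 at 978.5 mg/kg, against 10.19 to 10.81 in vehicle (log2 difference 0.80 ± 0.17, limma adjusted p = 0.00553). Chuk, a kinase that activates NF-kB, rose by 0.54 ± 0.11 and Sod2, a mitochondrial superoxide dismutase, by 0.48 ± 0.10 on the log2 scale (limma adjusted p = 0.00256 and 0.00513). Nfkbia, the inhibitor of NF-kB, differed by 0.43 ± 0.13 (limma adjusted p = 0.0342), and Myd88, an adaptor of interleukin-1 and Toll-like receptors, by -0.52 ± 0.16 (limma adjusted p = 0.0424). Irak1, a kinase of the same receptors, rose in the trend by 0.06 log2 units per dose step (limma adjusted p = 0.0237), which did not pass when replicate 1 or 3 at 978.5 mg/kg was left out, with its most variable probe set (0.114) or in the F test (0.151). The Nfkbia call was lost in 6 and the Myd88 call in 11 of the 21 fits that left out 1 array, and both with only the arrays compared (limma adjusted p = 0.115 and 0.1).

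Of 26 chemokines and receptors for neutrophils and monocytes, all 26 were measured. Limma called 0 at 61.2, 122.5 and 244.6 mg/kg. At an unadjusted p under 0.05 it was 0, 4 and 5 there, beside 5.48, 6.06 and 14% of all genes. Limma called 1 lower at 489.2 mg/kg, 1 lower at 978.5 mg/kg and 3 lower in the trend. Of all genes, 2.9%, 10.2% and 11.2% passed in these comparisons. Ccl5, a chemokine for T cells, had 7.90, 8.38 and 8.30 at 978.5 mg/kg, against 8.83 to 9.48 in vehicle (log2 difference -0.94 ± 0.24, limma adjusted p = 0.0169), and did not pass when replicate 1 or 3 of that dose was left out. The mean log2 signal of 16 lymphocyte markers was 5.63 to 5.81 at 978.5 mg/kg, against 5.82 to 6.17 in vehicle. These means lie close to the 20th percentile of all values (5.56), and Cd3d and Cd5 were under it on all arrays. Limma called 0 of the 16 at 978.5 mg/kg and 2 lower in the trend, beside 10.2% and 11.2% of all genes. The part of lymphocytes in the Ccl5 values was not tested. Cxcl13, a chemokine for B cells, had a log2 difference of -0.99 ± 0.26 at 489.2 mg/kg (limma adjusted p = 0.0431), a call lost in 11 of the 21 fits that left out 1 array and, among other settings, with array weights (0.152) and only the arrays compared (0.139). Cxcl16, a chemokine held on the cell membrane, fell in the trend by 0.07 log2 units per dose step (limma adjusted p = 0.0471), a call lost in 15 such fits, over treated arrays alone (0.795) and in the F test (0.276), among other settings. Cxcl2, a close relative of Cxcl1, did not pass at any dose, with a log2 difference of -0.13 ± 0.10 at 978.5 mg/kg (limma adjusted p = 0.461).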

How the data were processed

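Liver RNA of male rats was labelled with biotin for 21 arrays (100 ng of total RNA per array, per the labels' protocols), which were Affymetrix arrays. The authors deposited log2 signals, obtained by RMA (robust multi-array averaging) per the submitters' processing notes; its version is not given here. Of 31099 probe sets, 20832 were annotated with 1 gene, 436 with several and 9831 with none, and the last 2 kinds were not used. Each of 14218 genes was represented by its brightest probe set by mean signal, and 4526 genes had several. No further scaling was applied.

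Groups were compared in limma 3.58.1 (R 4.3.3) on all 14218 genes and 21 arrays with 1 mean per group (15 residual degrees of freedom) and p-values adjusted by Benjamini-Hochberg across every gene tested, at 0.05. The trend is a slope on dose rank. Correlations between members were tested with 100000 permutations of the arrays without regard to dose. Tables and plots used Python 3.11.15, pandas 2.3.3 and matplotlib 3.10.9. The test was checked on simulated data. With 3 arrays per dose, the number of arrays limits the precision.

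The members, lists and tests were chosen with earlier results of these data known. All 9 members were named, with up to 6 called genes of each pathway list, some known partners, and for each member up to 3 genes most like it. Hpx, a partner, and some of the genes most like a member are not described. Promoter sequences are from RefSeq (GRCr8). The alternatives covered the choice of probe set, filters, scaling, weights, leaving out each array, a block for replicate number, only the arrays compared, and for the trend an F test, the dose itself and treated arrays without vehicle.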

Additional observations from a re-analysis of the deposited data

Results flagged for a closer look

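Among 61 vehicle values examined, those of the 9 members, the named partner and list genes, and the list means, 8 had 1 array standing apart by Dixon's test at the 95% level for 6 arrays, and all 8 were vehicle replicate 6. None was a member. Chance gives about 1 in 20 such results, and results that share an array are not independent. In log2 signal, vehicle replicate 6 had 11.5 for Il1r1, with the nearest vehicle array at 9.89, and 8.31 for Cebpd, with the nearest at 7.46. It had 7.86 for Ccl2 (nearest 5.42), 7.39 for S100a8 (nearest 5.25) and 9.29 for S100a9 (nearest 7.02). The mean of the neutrophil list was 5.63 (nearest 5.19), that of the interleukin-1, tumour necrosis factor and NF-kB list 8.40 (nearest 8.04) and that of the chemokine list 7.63 (nearest 7.26). Cxcl1 was not among these results; 2 vehicle arrays, replicates 5 and 6, were high for it, and the test looks for a single array.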

How the results depend on the processing

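The number of members called was unchanged at 61.2, 122.5 and 244.6 mg/kg and between 978.5 and 61.2 mg/kg under every alternative run. At 489.2 mg/kg the 1 call, Orm1, became 0 with array weights (limma adjusted p = 0.0996), with the replicate block (0.179) and with only the arrays compared (0.16), and ranged from 0 to 1 over the fits without 1 array. At 978.5 mg/kg it ranged from 0 to 1, with Orm1 called without replicate 2 at 489.2 mg/kg (limma adjusted p = 0.0224). In the trend the 2 calls became 1 with the probe set of largest variance and with a second quantile normalisation, 0 with the replicate block, the dose in mg/kg, treated arrays alone or the F test, and 0 to 2 without 1 array. The labels give arrays of different doses only a shared replicate number. The 45 same-numbered pairs correlated between -0.23 and 0.37 (mean 0.04), with 17 over 0.1, and the 135 other pairs between -0.33 and 0.33 (mean -0.01), with 28 over 0.1, so the numbers were not taken as pairs. Even so, replicate 1 had the lowest mean of the sinusoidal endothelium markers in all 6 groups, 8.37 to 8.59 against 8.77 to 9.27 on the other arrays, a hint of pairing from the data, not from the design. The block ended the trends of Orm1 (limma adjusted p = 0.11) and Crp (0.114) and, among list genes, calls of Itih3, F12, Il6st, Nfkbia and Myd88 at 978.5 mg/kg and of Itih1, Serpina6 (0.0594) and Cxcl13 at 489.2 mg/kg, and the trends of Fn1 (0.0798), Il6st, Nfkbia, Cxcl13 and Cxcl16. Replicate numbers 4, 5 and 6 occur in vehicle alone, so each takes up 1 array in the block fit. That fit thus compared the doses with vehicle replicates 1, 2 and 3 only. The causes of the lost calls were not tested, and pairing and the smaller vehicle group cannot be told apart in them.

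None of the members' called values changed sign. Of 68 sign changes among their other values, 48 lay within 1 SE of 0 in both fits, such as Orm1 at 61.2 mg/kg (0.05, with -0.02 to 0.18 without 1 array) and Cxcl1 at 489.2 mg/kg (0.20, with -0.96 to 1.24), and 20 did not. With the replicate block the 20 included Cxcl1 at 61.2, 122.5, 244.6 and 978.5 mg/kg (0.03, 0.08, 0.40 and 0.38) and in the trend (0.23), Socs3 at 61.2 and 244.6 mg/kg (0.11 and 0.02) and the Stat3 trend (0.03). The block fit in effect leaves out vehicle replicates 4, 5 and 6, and replicates 5 and 6 were the vehicle arrays high in Cxcl1. With treated arrays alone they included the trends of Stat3 (0.07) and Cxcl1 (0.25), and without replicate 3 at 489.2 mg/kg A2m at that dose (-0.89, with a range of -0.89 to 0.88 without 1 array). With the probe set of largest variance they included Stat3 at 489.2 mg/kg (0.31) and Fgb at the doses other than 489.2 mg/kg (0.03, 0.03, 0.07 and 0.26), in the trend (0.04) and between 978.5 and 61.2 mg/kg (0.22). With the mean of all probe sets Fgb gave 0.02 at 978.5 mg/kg and 0.04 between those doses. Among list genes, Il6st at 978.5 mg/kg changed sign with the probe set of largest variance (0.08).

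Over all genes, counts moved by more than 1.5 times as follows. At 61.2 mg/kg 2 became 1 under 6 settings, the replicate block among them. At 122.5 mg/kg 16 became 357 with array weights, 4 with the block and 8 with only the arrays compared. At 244.6 mg/kg 420 became 250 for genes above the median level, 766 with weights and 636 at an adjusted p under 0.1. At 489.2 mg/kg 412 became 160 with only the arrays compared and 662 at 0.1. At 978.5 mg/kg 1457 became 961 with only the arrays compared. In the trend 1589 became 441 with treated arrays alone and 799 in the F test, and between 978.5 and 61.2 mg/kg 321 became 576 at 0.1. Without 1 array the counts ran from 0 to 3, 4 to 18, 112 to 453, 157 to 514 and 702 to 1594 from the lowest dose to the highest, from 1088 to 1730 in the trend and from 136 to 394 between those doses. Signal over background limits Clcf1, S100a8, Socs3 and most neutrophil markers. Hp and Fgb lay near the top of the signal scale, which may limit them and was not tested. The 3 arrays per dose limit all genes.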
